A study of Mus musculus with 8 samples.

Results

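The unconventional myosins of the hair bundle were examined in RNA-seq libraries of the mouse utricle, the organ of the inner ear that senses gravity and linear acceleration. The members, 8 genes of 48823 gene identifiers counted, were Myo7a, Myo6, Myo15, Myo3a, Myo3b, Myo1c, Myo1h and Myo10. They were chosen by name, with earlier results of these data known, and each symbol matched 1 gene. There were 4 libraries of Rest(+/deltaExon4) utricles, from mice that lack exon 4 in a single copy of Rest, called Rest heterozygous here. Their titles read KO, which goes against this heterozygous genotype label, and the genotype label was followed. The other 4 libraries were from wild-type utricles. All were labelled strain C57BL/6 and embryonic age E15.5, except that wild-type replicate 4 carries the strain label C57BL/7 and the age E15.6. Each library pooled RNA of 7 to 9 mice, and the labels do not say whether the pools came from separate litters, so p-values measure the spread between these pools. Means are given with ± SD over the 4 libraries of a genotype, and log2 changes, Rest heterozygous minus wild type, with ± SE. A germline deletion affects every cell of the organ, not only its hair cells.

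Unconventional myosins are motors that walk on actin filaments, and the stereocilia of the hair bundle are bundles of such filaments. Different myosins serve different places along a stereocilium. Some carry proteins to the tip, where the filaments grow, some hold the links between neighbouring stereocilia under tension, and some anchor the membrane at the base. In mice, loss of Myo7a, Myo6 or Myo15 causes deafness and disturbed balance. REST is a repressor of neuronal genes, and inclusion of exon 4 of its gene is known to give a truncated protein. The comparison asks what the loss of that exon does to expression in an organ with hair cells.

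The libraries held 22391530 to 24557189 read pairs on genes in Rest heterozygous and 20365225 to 23827315 in wild-type utricles. Some library measures moved with genotype without overlap, and their part in the results below was not tested. Read pairs outside genes made up 11.9% to 18.3% in Rest heterozygous and 18.4% to 22.2% in wild-type libraries, and genes with at least 1 read numbered 23408 to 23989 and 24265 to 24687. Rest itself was at 124.6 to 132 CPM (read counts scaled to a common library total, here also by TMM factors) in Rest heterozygous and 106 to 122 CPM in wild-type libraries. It was higher without overlap, as were 2.98% of all genes tested, but did not pass (log2 change 0.12 ± 0.068, edgeR adjusted p = 0.456). Gene counts do not show whether exon 4 was used. Hair cells were present: the summed CPM of the hair cell transcription factors Pou4f3, Gfi1, Lhx3 and Barhl1 was 124 to 171 in Rest heterozygous and 133 to 170.2 in wild-type libraries. No difference in this sum was found between genotypes (149.7 ± 19.4 against 159 ± 17.6 CPM, p = 0.543 in an exact permutation test, two-sided). Most of the sum was Pou4f3, at 111 ± 9.78 against 116 ± 11.5 CPM. Gfi1 and Barhl1 differed in direction, with log2 changes of -0.42 and 0.29 (edgeR adjusted p = 0.477 and 0.658). A list of 8 hair cell markers, which includes Pou4f3, Gfi1 and the partner genes Ptprq and Espn, summed to 340 to 399.7 CPM in Rest heterozygous and 407 to 469.98 CPM in wild-type libraries, without overlap. In this list 2 of 8 fell at an edgeR adjusted p under 0.05, as did 1.02% of all genes tested. They were Ptprq and Otof, which codes for otoferlin of the hair cell synapse (84.2 ± 9.82 against 167 ± 8.80 CPM). The mean sums of the list were 377 and 446 CPM, a smaller difference than that of Otof alone. Apart from Otof, the list together was therefore not lower in mean in Rest heterozygous libraries. At an unadjusted p under 0.05, 2 were higher, against 5.46% of all genes. One was the hair cell fate factor Atoh1 (60.4 ± 16.1 against 38.3 ± 10.4 CPM, edgeR adjusted p = 0.238). The other was Calb2, which codes for calretinin (47.6 ± 5.79 against 38.1 ± 3.97 CPM, edgeR adjusted p = 0.246). The part of this list in the results below was not tested.

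Summed neuron markers were at 336 to 401 CPM in Rest heterozygous and 525 to 768 CPM in wild-type libraries, with the highest sum in wild-type replicate 3, and the part of this in the results below was not tested. No bundle myosin is on that list. Of the 7 neuron markers, the neurofilament genes Nefm and Nefl fell at an edgeR adjusted p under 0.05, as did 1.02% of all genes. The other 5 did not pass. Of these, Isl1 (147 ± 13.4 against 146 ± 12.6 CPM) and Elavl4 (16.4 ± 3.25 against 15.96 ± 5.49 CPM) had similar means. Tubb3 (17.7 ± 2.38 against 27.5 ± 23.1 CPM), Prph (5.21 ± 1.01 against 16.7 ± 21.5 CPM) and Stmn2 (9.17 ± 2.48 against 16.8 ± 17.4 CPM) had lower means. Their highest values were all in wild-type replicate 3, at 62.0, 48.7 and 42.7 CPM. Of 4 skeletal muscle markers, Myog, the gene of the muscle factor myogenin, rose (23.1 ± 3.98 against 7.57 ± 2.09 CPM, edgeR adjusted p = 0.00311), as did 0.147% of all genes. The list summed to 67.5 to 76.9 CPM in Rest heterozygous and 37.3 to 75.8 CPM in wild-type libraries. Summed haemoglobin and other erythroid markers were at 421 to 654 CPM in Rest heterozygous and 419.5 to 503 CPM in wild-type replicates 1 to 3, but at 5500 CPM in wild-type replicate 4. Without that library no bundle myosin passed the threshold used below, and the log2 changes of Myo3b, Myo1h, Myo7a and Myo15 were -0.79, -0.70, -0.49 and -0.74.

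None of the 8 members passed the threshold in either direction, at an adjusted p of 0.05 (edgeR's quasi-likelihood test, Benjamini-Hochberg adjustment over 16990 genes tested). Of all genes tested 1.02% passed as lower and 0.147% as higher, 1.17% in all. At an unadjusted p under 0.05 there were 4 members lower and 0 higher, Myo3b, Myo1h, Myo7a and Myo15, against 7.92% and 5.46% of all genes. The median log2 change of the 8 members was -0.27, against -0.0027 over all genes tested. All 8 were above the filter on low counts. By DESeq2, which called 2.42% of all genes as lower and 3.32% in either direction, Myo3b and Myo1h passed as lower (adjusted p = 0.0047 and 0.042).

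The 4 members at an unadjusted p under 0.05 are shown here by the 250 bases before their start sites, from RefSeq (GRCm38.p6), because REST binds an element called RE1 near genes it represses. Capitals mark 2 short pieces of that element, CAGCAC of its left part and GGACAG of its right part, searched on both strands. The windows are chr2:70038876-70039125 on the plus strand for Myo3b, chr5:114289003-114289252 on the plus strand for Myo1h, chr7:98119494-98119743 on the minus strand for Myo7a and chr11:60469089-60469338 on the plus strand for Myo15. They are written 5′ to 3′ along each gene.
Myo3b: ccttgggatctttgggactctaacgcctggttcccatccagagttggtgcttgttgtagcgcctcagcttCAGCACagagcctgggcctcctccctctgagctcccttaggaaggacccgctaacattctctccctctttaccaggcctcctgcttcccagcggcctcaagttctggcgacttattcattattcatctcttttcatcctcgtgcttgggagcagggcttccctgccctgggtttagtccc
Myo1h: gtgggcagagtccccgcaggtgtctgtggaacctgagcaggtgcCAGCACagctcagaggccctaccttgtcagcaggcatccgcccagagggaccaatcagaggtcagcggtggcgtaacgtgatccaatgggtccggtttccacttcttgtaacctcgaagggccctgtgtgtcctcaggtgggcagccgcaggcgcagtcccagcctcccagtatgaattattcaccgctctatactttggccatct
Myo7a: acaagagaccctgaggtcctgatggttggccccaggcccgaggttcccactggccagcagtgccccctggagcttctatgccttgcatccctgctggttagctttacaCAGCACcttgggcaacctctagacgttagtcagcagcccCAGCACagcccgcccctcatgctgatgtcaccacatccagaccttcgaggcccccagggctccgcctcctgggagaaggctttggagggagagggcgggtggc
Myo15: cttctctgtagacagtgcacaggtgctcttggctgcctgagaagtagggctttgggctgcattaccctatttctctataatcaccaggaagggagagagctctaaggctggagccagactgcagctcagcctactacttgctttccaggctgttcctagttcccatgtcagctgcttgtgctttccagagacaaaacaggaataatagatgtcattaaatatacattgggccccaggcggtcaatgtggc

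CAGCAC was found 1 time in the Myo3b window, 180 bases before the start, 1 time in that of Myo1h and 2 times in that of Myo7a, and neither piece was found in that of Myo15. Some members have several RefSeq start sites, and over all 13 windows of the 8 members 5 held CAGCAC, in Myo7a, Myo3b, Myo1c and Myo1h. GGACAG was in 2 windows, those of Myo6 and Myo3a. Pieces of this length are common: CAGCAC was in 16.6% and GGACAG in 18.7% of the 32851 promoter windows of the same length. No window of a member held both pieces. A match is a run of letters and no evidence of binding, and sites elsewhere in these genes were not examined.

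Myo15, Myo3b and Myo3a carry cargo to the tips of stereocilia. Myo15 (chromosome 11, 60469339 to 60528369, GRCm38), also called Myo15a, delivers whirlin and EPS8, on which stereocilia depend to lengthen. Its level was 10.4, 8.94, 5.22 and 6.67 CPM in Rest heterozygous replicates 1 to 4, against 14.2, 9.47, 15.4 and 12.2 CPM in wild-type replicates 1 to 4. The groups overlapped only through Rest heterozygous replicate 1 and wild-type replicate 2, and 3 of 4 wild-type libraries were above every Rest heterozygous library. Means were 7.81 ± 2.32 and 12.8 ± 2.61 CPM. The log2 change was -0.72 ± 0.22, with an edgeR adjusted p of 0.205 and a DESeq2 adjusted p of 0.0585.

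Myo3b (chromosome 2, 70039126 to 70429198), a class III myosin with a kinase domain that carries espin proteins to the tips, was the only member whose groups did not overlap. It was at 9.52, 9.03, 6.80 and 6.5 CPM in Rest heterozygous replicates 1 to 4, against 17.3, 11.5, 12.5 and 12.6 CPM in wild-type replicates 1 to 4. Of all genes tested 7.88% had groups that did not overlap, 4.89% with Rest heterozygous lower and 2.98% with Rest heterozygous higher. Wild-type replicate 1 stood above the other 3 wild-type libraries. Means were 7.97 ± 1.53 and 13.5 ± 2.64 CPM, and the log2 change was -0.76 ± 0.18. The difference did not pass with edgeR (adjusted p = 0.0838). It passed with DESeq2, and with edgeR on library totals without TMM factors (adjusted p = 0.045), where 1.32% of all genes passed as lower. Over all 14 alternatives the log2 change lay between -0.85 and -0.60 and the adjusted p between 0.0047 and 0.217.

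Myo3a (chromosome 2, 22227503 to 22618252), the class III relative of Myo3b, was scarce. Only 14 to 66 read pairs per library fell on it, which gave 1.5, 0.765, 1.17 and 1.76 CPM in Rest heterozygous and 2.81, 0.647, 0.849 and 1.36 CPM in wild-type replicates 1 to 4. The highest and the lowest value were both in wild-type libraries. The log2 change of -0.12 ± 0.46 (edgeR adjusted p = 0.936) changed sign without wild-type replicate 1 (0.47) or Rest heterozygous replicate 2 (0.074), so no direction can be given at this depth. Per kilobase of exon, Myo3b exceeded Myo3a in every library, 4.17 to 13.3 times in Rest heterozygous and 6.98 to 19.99 times in wild-type libraries.

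Myo7a (chromosome 7, 98051060 to 98119524, minus strand) works at the upper end of the tip link, together with the scaffold proteins harmonin and SANS, and its protein is a common marker of hair cells. It was at 26.7, 31.4, 31.6 and 36.2 CPM in Rest heterozygous replicates 1 to 4, against 46.6, 45.7, 40.8 and 33.6 CPM in wild-type replicates 1 to 4. Wild-type replicate 4 lay within the range of the Rest heterozygous libraries, and the other 3 wild-type libraries lay above it. The log2 change was -0.40 ± 0.13 (edgeR adjusted p = 0.199), the smallest of the 4 members at an unadjusted p under 0.05. No alternative brought it past the threshold, and its adjusted p was between 0.0974 and 0.464.

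Myo6 (chromosome 9, 80165031 to 80311729) walks towards the minus end of actin and is needed to hold the membrane at the base of stereocilia. It was the most abundant of the 8, at 297, 405, 268 and 306 CPM in Rest heterozygous and 391, 324, 322 and 359.8 CPM in wild-type replicates 1 to 4. The highest value was in a Rest heterozygous library, and the ranges overlapped. Means were 319 ± 59.5 and 349 ± 32.7 CPM, with a log2 change of -0.13 ± 0.12 (edgeR adjusted p = 0.685). Between 6431 and 9185 read pairs per library stood behind these values, so counting error was small beside the spread between libraries.

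Myo1c and Myo1h are class I myosins, single-headed motors that bind membranes. Myo1c (chromosome 11, 75650504 to 75673910) has been proposed as a motor of adaptation of the transduction channel and is also made by many other cells. It was at 20.1, 23.5, 21.9 and 24.5 CPM in Rest heterozygous and 16.6, 19.0, 23.6 and 19.98 CPM in wild-type replicates 1 to 4. These ranges overlapped (log2 change 0.18 ± 0.12, edgeR adjusted p = 0.552).

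Myo1h (chromosome 5, 114289166 to 114365357) had the most negative log2 change of the members, -0.80 ± 0.24 (edgeR adjusted p = 0.182). It was at 6.26, 3.15, 3.30 and 3.52 CPM in Rest heterozygous replicates 1 to 4, against 6.93, 6.24, 6.67 and 8.44 CPM in wild-type replicates 1 to 4. Rest heterozygous replicate 1 reached the wild-type range, just above wild-type replicate 2, while the other 3 were well below it. Without Rest heterozygous replicate 1 the log2 change was -1.09 and passed (edgeR adjusted p = 0.0258), in a fit that called 0.773% of all genes as lower. No other left-out library brought it past the threshold.

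The counts of Myo1h rest on part of the gene. On the opposite strand, Kctd10 shares 1530 bases of its exons, which are 25.8% of the exon length of Myo1h, and the libraries do not keep strand. Read pairs in shared exons were counted for neither gene. The strand-specific columns show how many there were: 1152 to 1486 read pairs in Rest heterozygous and 1087 to 1404 in wild-type libraries, against 66 to 146 and 135 to 174 counted for Myo1h. How many of the shared read pairs came from Myo1h cannot be told. Kctd10 was at 34.4 to 42.2 CPM in Rest heterozygous and 31.2 to 35.1 CPM in wild-type libraries. For the other 7 members the strand columns added up to the unstranded count to within 1 read pair.

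**Figure D1:**
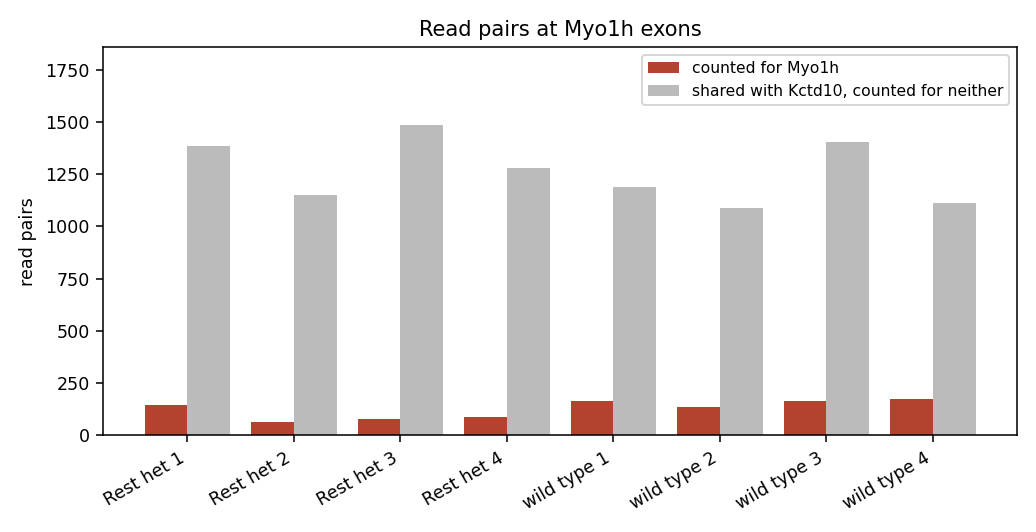
Read pairs at the exons of Myo1h in each library: those counted for the gene (red bars) and those in exons shared with Kctd10, counted for neither gene (grey bars). The shared read pairs number 1087 to 1486 per library and exceed the counted ones in every library.

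Myo10 (chromosome 15, 25622525 to 25813673) is a motor of filopodia with a cargo-binding tail related to those of Myo7a and Myo15, and is expressed in many tissues. It was at 35.8, 60.2, 36.3 and 41.5 CPM in Rest heterozygous and 41.8, 40.6, 39.7 and 36.8 CPM in wild-type replicates 1 to 4. The wild-type libraries were close together, and Rest heterozygous replicate 2 stood above all others, as it did for Myo6. The log2 change was 0.13 ± 0.15 (edgeR adjusted p = 0.751), and -0.055 without that library. In exact two-sided permutation tests of the CPM of the 8 members, p was 0.0286 for Myo3b, the smallest value the design allows, 0.0571 for Myo7a, Myo15 and Myo1h, and 0.2 to 0.886 for the others. These p-values are not adjusted for the 8 genes.

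**Figure D2:**
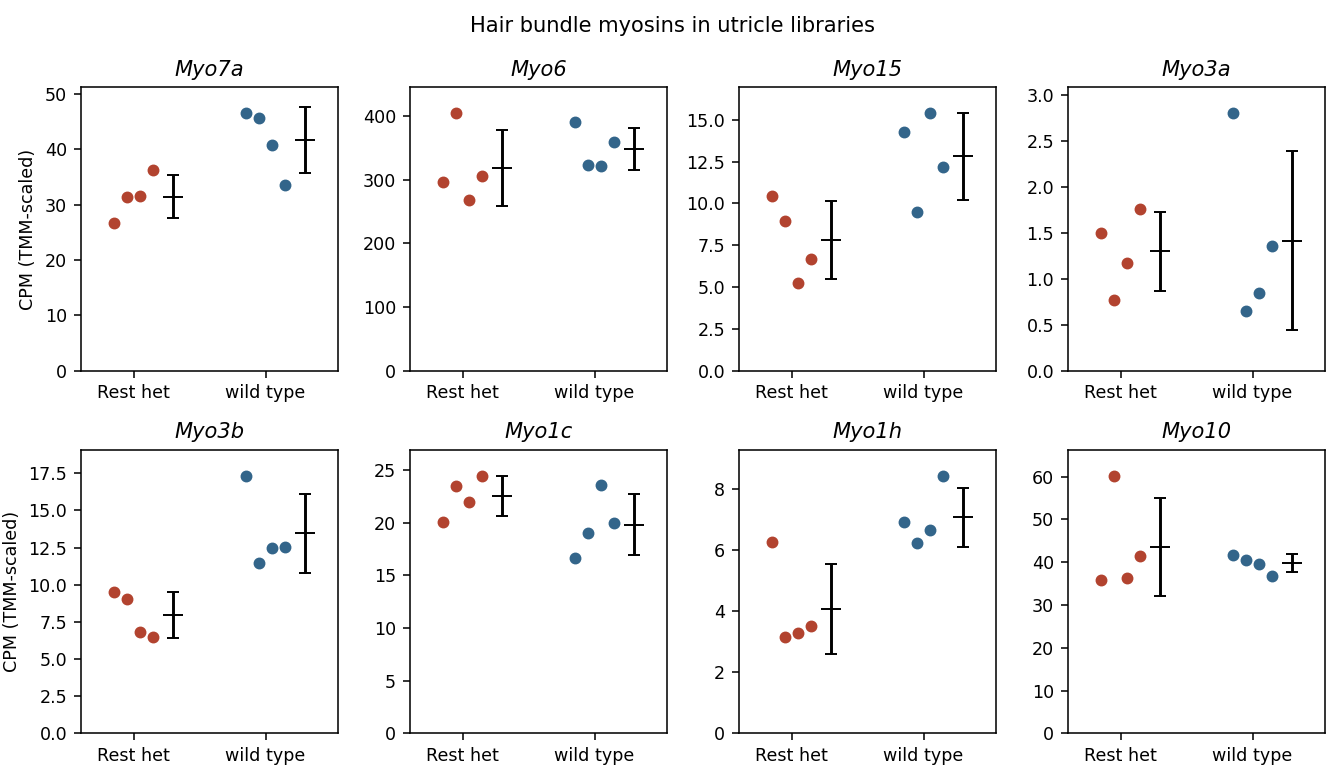
CPM of each bundle myosin in the 4 Rest heterozygous (red) and 4 wild-type (blue) libraries, with the mean and SD of each group in black, each panel on its own scale from 0. The groups do not overlap for Myo3b, and a single Rest heterozygous library reaches the wild-type range for Myo1h.

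Levels of different genes can be set side by side only per length, as CPM per kilobase of exon, which assumes even coverage. In Rest heterozygous libraries the order was Myo6 (26.4 ± 4.93), Myo10 (4.29 ± 1.13), Myo7a (3.67 ± 0.453), Myo1c (3.42 ± 0.289), Myo3b (1.13 ± 0.217), Myo1h (0.685 ± 0.249), Myo15 (0.612 ± 0.182) and Myo3a (0.163 ± 0.0541). Neighbours overlapped from Myo10 to Myo1c and from Myo3b to Myo15. In wild-type libraries Myo6 (28.9 ± 2.71) was followed by Myo7a (4.86 ± 0.696), Myo10 (3.92 ± 0.208), Myo1c (3.01 ± 0.441), Myo3b (1.91 ± 0.375), Myo1h (1.19 ± 0.161), Myo15 (1.005 ± 0.204) and Myo3a (0.178 ± 0.123). There, the neighbours Myo7a and Myo10 overlapped, and Myo1h and Myo15 did. The value of Myo1h is too low by the shared exons, whose length is in the divisor while their read pairs are not counted.

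Myo10 stood before Myo7a in the order of the Rest heterozygous libraries and after it in that of the wild-type libraries. The ratio of Myo10 to Myo7a per kilobase was 1.13, 1.63, 0.973 and 0.97 in Rest heterozygous and 0.759, 0.751, 0.824 and 0.928 in wild-type replicates 1 to 4. It was the only one of 6 ratios between members whose groups did not overlap, and no test was made of it. The share of ratios between other genes without overlap was not computed. Of single genes tested, 7.88% had groups that did not overlap. The ratio of Myo15 to Myo7a was 0.111 to 0.262 in Rest heterozygous and 0.139 to 0.254 in wild-type libraries. The ratio of Myo1h to Myo1c was 0.149 to 0.346 and 0.314 to 0.469.

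In bulk libraries, fewer hair cells and less RNA per hair cell cannot be told apart. Each member was also divided by the summed CPM of Pou4f3, Gfi1, Lhx3 and Barhl1 in the same library, which does not settle this, since the divisor is itself RNA. The mean of this sum, Rest heterozygous over wild type, was 0.944, and that of the 8 hair cell markers 0.844. The value of 0.844 rests on Otof, whose mean fell by more CPM than that of the whole list. No division by the sum of the 8 markers was made. On this scale Myo3b was at 0.0459 to 0.0579 in Rest heterozygous and 0.0738 to 0.106 in wild-type libraries, and Myo15 at 0.0352 to 0.0611 and 0.0714 to 0.092. Myo1h was at 0.0202 to 0.0367 and 0.0398 to 0.0496. These 3 members did not overlap between genotypes, and all 3 were lower, as were 2.71% of all genes on the same scale (6.34% in either direction). On CPM itself Myo15 and Myo1h overlapped, through Rest heterozygous replicate 1 and wild-type replicate 2. These had the highest divisor of all libraries, 171 CPM, and the lowest wild-type divisor, 133 CPM. The separation of Myo15 and Myo1h on this scale therefore depends on these divisors. For Myo7a the ranges overlapped, at 0.157 to 0.292 in Rest heterozygous and 0.197 to 0.345 in wild-type libraries, and so did those of Myo6, Myo3a, Myo1c and Myo10. Myo1c, Myo6 and Myo10 are also made by other cell types, so for these the ratio is no measure per hair cell.

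**Figure D3:**
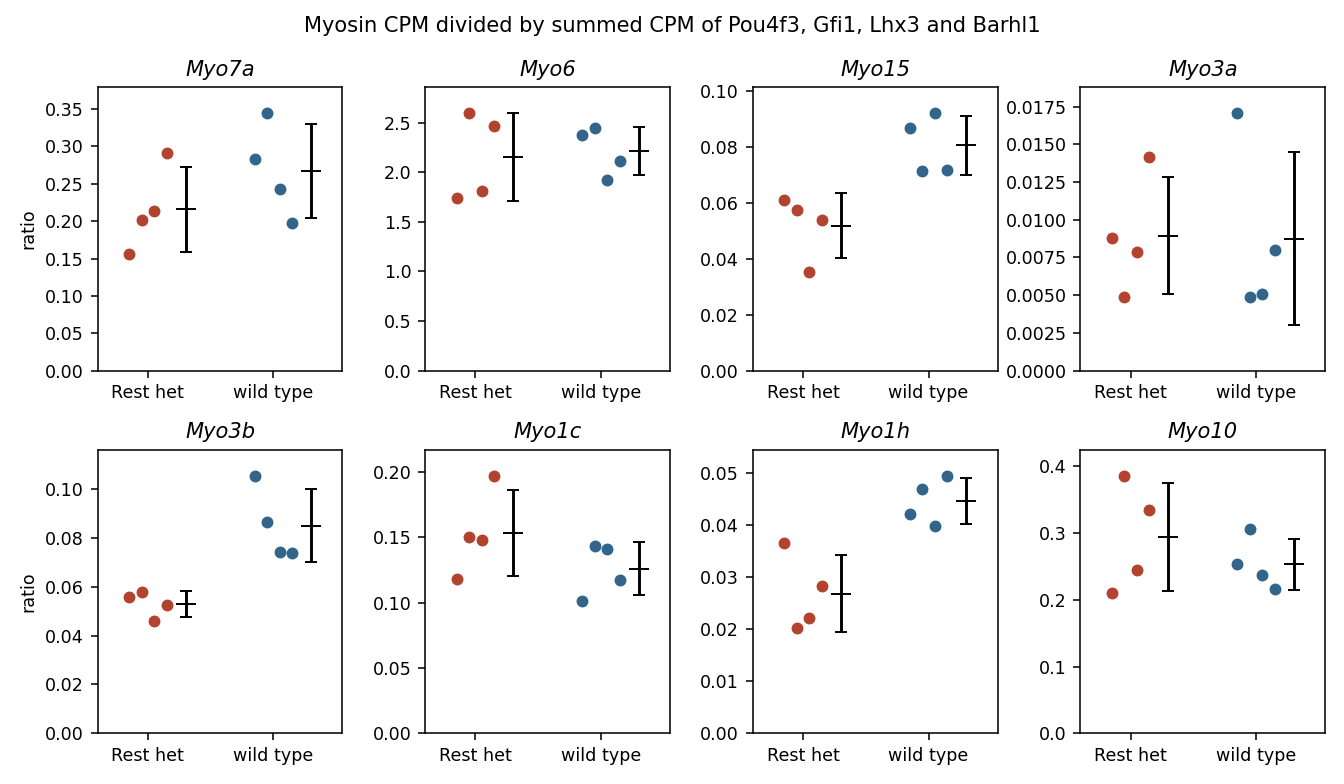
CPM of each bundle myosin divided by the summed CPM of 4 hair cell transcription factors, in Rest heterozygous (red) and wild-type (blue) libraries, with the mean and SD of each group in black. The groups do not overlap for Myo15, Myo3b and Myo1h, whereas on CPM itself those of Myo15 and Myo1h do.

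Partner and cargo proteins of these motors were taken as a list of 22 genes, of which 21 were tested. Ptprq, a receptor phosphatase at the base of stereocilia whose place there depends on Myo6, was the only one past the threshold. Of all genes tested, 1.02% passed as lower. Ptprq was at 9.91 ± 1.79 CPM in Rest heterozygous and 17.3 ± 1.04 CPM in wild-type libraries (log2 change -0.80 ± 0.14, edgeR adjusted p = 0.0187). Its groups did not overlap, as for the 4.89% of all genes that were lower without overlap. DESeq2, which called 2.42% of all genes as lower, called it too (adjusted p = 1.1e-05). But after removing 1 library at a time edgeR called it in 2 of 8 fits, and the other 6 gave an adjusted p of 0.0508 to 0.0604. None of the other 20 passed in either direction. At an unadjusted p under 0.05, 3 of the 21 were lower and 1 higher, against 7.92% and 5.46% of all genes. A negative log2 change was found for 12 of the 21, and the list's median was -0.012.

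The cargoes of the tip motors had smaller differences than Myo15 and Myo3b. Whirlin (Whrn) was at 8.13 ± 0.677 CPM in Rest heterozygous and 9.85 ± 2.28 CPM in wild-type libraries, and Eps8 at 41.3 ± 7.66 and 44.5 ± 2.86 CPM (edgeR adjusted p = 0.503 and 0.748). The espin genes Espn and Espnl were at 20.7 ± 1.46 and 9.77 ± 1.59 CPM in Rest heterozygous libraries, against 23.2 ± 2.47 and 12.4 ± 1.26 CPM in wild-type libraries (edgeR adjusted p = 0.555 and 0.353). Of the partners of Myo7a, the harmonin gene Ush1c was at 133 ± 5.46 and 154 ± 19.3 CPM (edgeR adjusted p = 0.357). Whether these changes differ from those of the motors was not tested. The partners named here all had a negative log2 change, which does not hold for the whole list.

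The remaining unconventional myosins, 16 genes that mostly serve transport, adhesion and cell shape outside the bundle, had 14 tested, and 0 passed with edgeR in either direction. At an unadjusted p under 0.05 there were 3 lower and 0 higher, against 7.92% and 5.46% of all genes. With DESeq2 2 were called as lower, against 2.42% of all genes. The median log2 change was -0.056. Myo5b, a motor of recycling endosomes, was at 25.0 ± 1.79 CPM in Rest heterozygous and 33.0 ± 1.38 CPM in wild-type libraries, and Myo9a at 25.8 ± 2.94 and 34.5 ± 2.40 CPM. Neither pair of groups overlapped, as for the 4.89% of all genes that were lower without overlap, and the edgeR adjusted p were 0.0634 and 0.106. Myo1e, among the abundant genes of this list, was at 50.4 ± 5.76 CPM in Rest heterozygous and 59.6 ± 4.84 CPM in wild-type libraries (edgeR adjusted p = 0.329). Myo5b and Myo9a were chosen after their values were seen.

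**Figure D4:**
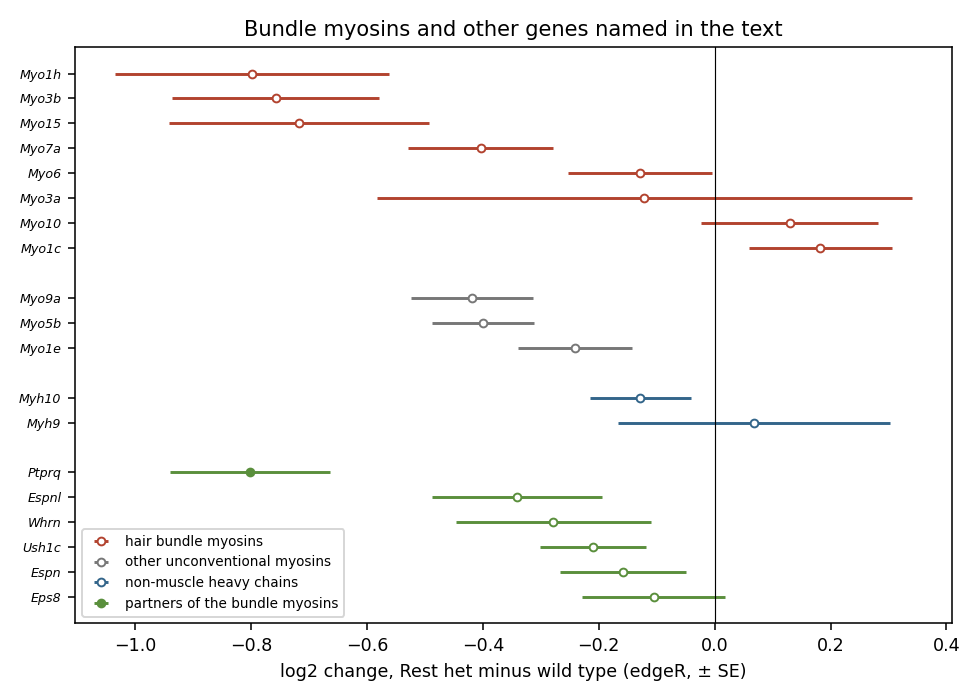
Log2 change of tested genes (Rest heterozygous minus wild type, edgeR, bars show ± SE) for the 8 bundle myosins and for those other unconventional myosins, non-muscle heavy chains and partner genes that the text names. Filled points passed an adjusted p of 0.05, which is Ptprq alone, and Myo1h, Myo3b and Myo15 lie at -0.80, -0.76 and -0.72. The partner genes shown all have a negative log2 change, as do only 12 of the 21 partners tested.

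By the root mean square difference of mean-centred log2 CPM over the 8 libraries, the 3 genes most like each member were sought among the other protein-coding genes with a mean of at least 5 CPM, 11154 for Myo3a and 11153 for each other member. For Myo3b they were Ttll3 (0.118), Kif9 (0.13) and Stxbp5 (0.146), beside a variation of 0.442 of Myo3b itself on the same scale. For Myo15 they were Cfap44 (0.117), Cacnb2 (0.125) and Arid3b (0.142), for Myo1h Kif28 (0.145), Nek5 (0.175) and Serpine3 (0.181), and for Myo7a Cdon (0.0865), Nol7 (0.106) and Slc9a9 (0.112). Of these 12 genes Ttll3, Arid3b and Serpine3 passed the edgeR threshold as lower (adjusted p = 0.0342, 0.0374 and 0.0227), a contrast that the likeness itself includes. For Myo6 they were Fbxo45, Ctnnd2 and Sass6, for Myo1c 2510009E07Rik, Wwtr1 and Gm10282, and for Myo10 Dclre1a, Ppp2r5c and Alg11. No gene came close to Myo3a, whose nearest, Ascc3, Crabp1 and Lrrtm1, differed by 0.393 to 0.396, against a variation of 0.604 of Myo3a itself.

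The log2 change of each member was recomputed under 14 other settings. Of these, the reads recovered from the authors' normalized values repeat the fit without wild-type replicate 4. Myo7a, Myo6, Myo15, Myo3b and Myo1h were negative and Myo1c positive under all 14, whereas Myo3a and Myo10 changed sign under some. Calls of Myo3b and Myo1h were made under 2 settings each.

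**Figure D5:**
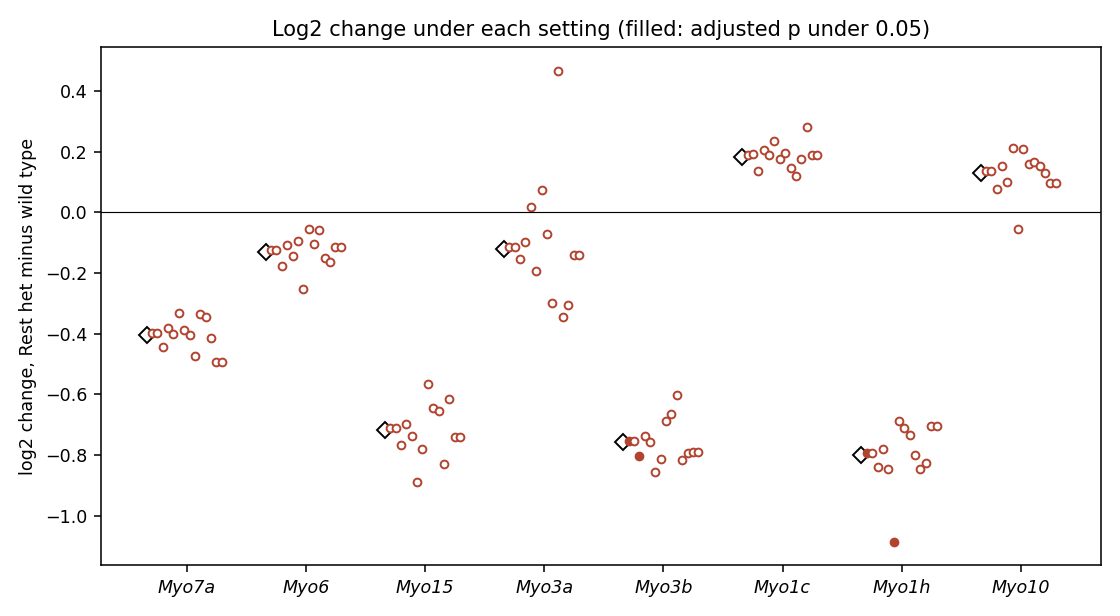
Log2 change of each bundle myosin (Rest heterozygous minus wild type) as reported above (diamond) and under 14 other settings (circles), filled where the adjusted p was under 0.05. The 2 filled circles of Myo3b and the 2 of Myo1h are the only calls, and Myo3a lies on both sides of 0.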

How the data were processed

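Per the labels' protocols, cDNA was made from 200 to 300 ng of total RNA with an oligo-dT primer and template switching, amplified in 12 PCR cycles, tagmented and sequenced in pairs of 126 bases. The submitters' processing notes name STAR 2.5.2a, DESeq2 and the build GRCm38.p4. The authors deposited whole-number counts of read pairs per gene and library, not normalized. The unstranded column was used, since both strand columns held 53.2% to 53.4% of its total. Lines naming no gene held 25.2% to 33.9% of read pairs and were left out. The authors also deposited a table of size-factor normalized counts (a signal) for 7 libraries, without wild-type replicate 4. Multiplied back, 100% of its values were whole reads (tolerance 0.001), and 100% equalled the deposited counts. On them edgeR called 112 genes as lower and 17 as higher, the same numbers as in the fit without wild-type replicate 4.

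Genes were filtered with filterByExpr (minimum count 10, total 15), scaled by TMM and tested by the quasi-likelihood method of edgeR 4.0.16 (R 4.3.3), with the Wald test of DESeq2 1.42.0 as an alternative. The standard error is the log2 change divided by the square root of F. CPM were computed from TMM-scaled totals. Symbols, coordinates and exon lengths came from GENCODE M21 (GRCm38), which held 48349 of the 48823 identifiers. The test was checked on simulated data of 4 against 4 libraries. It called 32.5% of 1.5-fold, 73% of 2-fold and 97% of 4-fold changes, so a change of about 1.5-fold is often missed. The members and lists were chosen with earlier results of these data known. Named genes are the 8 members and Rest, list members past the threshold or else the 2 most abundant, and the 3 genes nearest to each member (pseudocount 0.1 CPM), of which a few are not reported here. The other partner genes, the markers Atoh1, Calb2, Isl1, Elavl4, Tubb3, Prph, Stmn2, Acta1 and Tnnt3, Kctd10, Myo5b, Myo9a, Calm3, Myl9 and the hair cell transcription factors were named outside this rule. The titles, which read KO for the Rest heterozygous libraries, number the replicates 1 to 4 in both genotypes, but the labels tie them to no litter or day.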

Additional observations from a re-analysis of the deposited data

Results flagged for a closer look

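Myo1h in Rest heterozygous replicate 1 was at 6.26 CPM, far from the other 3 Rest heterozygous libraries at 3.15 to 3.52 CPM. Its distance from the nearest of them was 0.883 of the group's range, above Dixon's 95% critical value for 4 samples.

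The summed CPM of the hair cell transcription factors in wild-type replicate 2 was 133, against 164 to 170.2 in the other wild-type libraries, a distance of 0.845 of the range. Wild-type replicate 2 also had the lowest Myo15 and Myo3b of its group. Of 18 groups examined about 1 in 20 would stand out in this way by chance.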

How the results depend on the processing

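Over all genes, 173 were lower and 25 higher with edgeR. DESeq2 called 411 lower and 153 higher. Reads recovered from the values the authors normalized, an alternative chosen after seeing the data, gave 112 lower. They equal the deposited counts, so this repeats the fit without wild-type replicate 4, which also gave 112 lower. Leaving out single libraries gave 105 to 140 lower and 12 to 28 higher. Among the 8 myosins, the count of lower calls was 2 with DESeq2 (Myo3b and Myo1h), 1 on library totals (Myo3b) and 0 to 1 when a library was left out (Myo1h without Rest heterozygous replicate 1). With the replicate number as a block, 80 genes were lower and 16 higher, no myosin passed, and the call of Ptprq was lost (adjusted p = 0.0793). Same-numbered libraries did not deviate together (correlations over genes of -0.12 to 0.0554), and no library correlated best with its own number. Myo3a changed sign under the block (0.017), and between -0.34 and 0.47 when libraries were left out, and Myo10 lay between -0.055 and 0.21. The ratio of the hair cell transcription factor sum, Rest heterozygous over wild type, was 0.895 to 0.998 without single libraries, and the 8 ratios of myosins to this sum moved by less than their spread. Counts of 14 to 66 read pairs limit Myo3a, and 66 to 174 limit Myo1h.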

Other observations

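The heavy and light chains of conventional myosin and the calmodulins, which serve as light chains of the bundle myosins, had 0 calls with edgeR. Of 9 light chain and calmodulin genes tested, 3 had a negative log2 change. At an unadjusted p under 0.05 there were 2 higher and 0 lower, against 5.46% and 7.92% of all genes. Calm2, among the abundant genes of this list, was at 677 ± 14.6 CPM in Rest heterozygous and 751 ± 38.5 CPM in wild-type libraries (mean ± SD of 4 libraries, edgeR adjusted p = 0.378), without overlap and lower in Rest heterozygous libraries. Calm3 was at 142 ± 13.9 and 112 ± 5.71 CPM (edgeR adjusted p = 0.0838) and the regulatory light chain gene Myl9 at 91.9 ± 6.84 and 71.8 ± 4.44 CPM (edgeR adjusted p = 0.0573), both also without overlap, in the other direction, and both called as higher by DESeq2. Both were chosen after their values were seen. Of all genes tested, 4.89% were lower and 2.98% higher without overlap, and DESeq2 called 3.32% in either direction.

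The non-muscle heavy chain genes Myh9 and Myh10 were at 217 ± 71.2 and 169 ± 16.1 CPM in Rest heterozygous and 208 ± 54.9 and 185 ± 13.9 CPM in wild-type libraries (edgeR adjusted p = 0.929 and 0.552), and none of 3 had an unadjusted p under 0.05. Of 11 muscle heavy chain genes 7 were tested. The embryonic heavy chain gene Myh3 was at 9.51 ± 0.923 and 6.20 ± 0.483 CPM (edgeR adjusted p = 0.0655). It was higher without overlap, as were 2.98% of all genes, and was called as higher by DESeq2, which called 3.32% in either direction. Beside Myh3, Myog among the skeletal muscle markers rose (23.1 ± 3.98 and 7.57 ± 2.09 CPM, edgeR adjusted p = 0.00311), whereas Acta1 was at 31.4 ± 4.48 and 31.0 ± 11.6 CPM and Tnnt3 at 7.22 ± 1.49 and 7.84 ± 2.88 CPM. The part of muscle tissue in these values was not tested. Myh8 was at 4.69 ± 1.17 and 4.94 ± 1.34 CPM (edgeR adjusted p = 0.924).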
